A study of Mus musculus with 4 samples.

Results

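Skeletal muscle fibres form when single myoblasts recognise each other, adhere and merge their membranes. The 10 genes described here code for surface proteins of that process: the fusion protein myomaker (Mymk), the junctional adhesion molecules Jam2 and Jam3, the cadherins Cdh2 and Cdh15, the co-receptors Cdon, Boc and Neo1, the neural cell adhesion molecule Ncam1, and nephrin (Nphs1). They were chosen by gene name, with earlier results of these data known, and each matched 1 of the 54446 rows of the deposited table. The members were read in 2 libraries of LncMyod-knockdown cells and 2 libraries of control cells. Both groups were cultures of hindlimb satellite cells, tagged as muscle stem cells, from C57BL/6 mice, kept in F10 medium with 10% HS and P/S. Knockdown cells received an siRNA aimed at the long non-coding RNA LncMyod and control cells a control siRNA, and polyadenylated RNA was taken after 48 h.

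The knockdown and control labels could not be checked on the target, since 0 rows carry the name LncMyoD, and the treatment text given for the control samples also names LncMyod. The labels do not say whether replicates were separate cultures or animals, so every p-value below measures the spread between these samples only, which may be technical. Library depth, read from the step between low values, gave 36.7 to 41.1 reads of 150 nt for each FPKM on 1 kb of exon, so the deepest library exceeded the shallowest 1.12-fold. Of the lineage markers, the highest was a gene of differentiating cells. Myog, the myogenic factor switched on as myoblasts leave the cycle, had 3406 and 2793 FPKM (fragments per kilobase of exon, scaled to the fragments mapped) in knockdown cells against 4196 and 3931 FPKM in control cells. Pax7, the factor that defines satellite cells, had 1.40 and 0.625 FPKM in knockdown cells against 1.02 and 0.859 FPKM in control cells, near the limit of 1 FPKM used below, although the samples are tagged as stem cells. Myf5 had 6.11 and 7.31 FPKM in knockdown cells against 8.20 and 7.63 FPKM in control cells, Myod1 had 583 and 667 FPKM against 698 and 691 FPKM, and Des, which codes for the muscle intermediate filament protein, had 221 and 287 FPKM against 285 and 273 FPKM. Among the surface markers of the lineage, Itga7 had 51.3 and 82.5 FPKM in knockdown cells against 64.5 and 59.7 FPKM in control cells, and Sdc4 had 36.3 and 41.4 FPKM against 36.8 and 34.8 FPKM. Of the 9 tested genes in the muscle lineage list, which includes Mymk, Cdh15 and Ncam1, 3 had positive and 6 negative fold changes. By limma 0 were called, where 0.055% of all genes tested were. An unadjusted p under 0.05 was reached by 2, Myog and the member Mymk, where 7.08% of all genes tested reached it.

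Fusion follows a sequence. Cadherins and immunoglobulin-type receptors hold myoblasts together and signal inward, CDON and its relatives sit in cis with cadherins and pass the contact on to CDC42 and the p38 kinase, and myomaker, a membrane protein largely restricted to fusing muscle cells, then acts with the small protein myomixer to merge the bilayers. The comparison of knockdown with control asked whether any of these receptors differed after the siRNA. Differences were tested with limma on log2(FPKM + 1) over 10900 genes, those averaging 1 FPKM or more, with p-values adjusted over all of them, and fold changes on that scale understate the change of low genes. Of the 10 members, 9 passed this filter and Nphs1 did not. At an adjusted p under 0.05, 0 members were higher, where 0.00917% of all genes tested were, and 0 were lower, where 0.0459% of all genes were (0.055% in either direction). At an unadjusted p under 0.05 there were 2 of the 9, against 7.08% of all genes, and these were Jam2 and Mymk. Since the members were chosen with earlier results of these data known, that contrast is a description only. The median log2 fold change was 0.0088 over the 9 members and 0.026 over all genes tested, with 5 members positive and 4 negative. The absolute log2 fold change was under 0.25 in 7 of them.

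**Figure D1:**
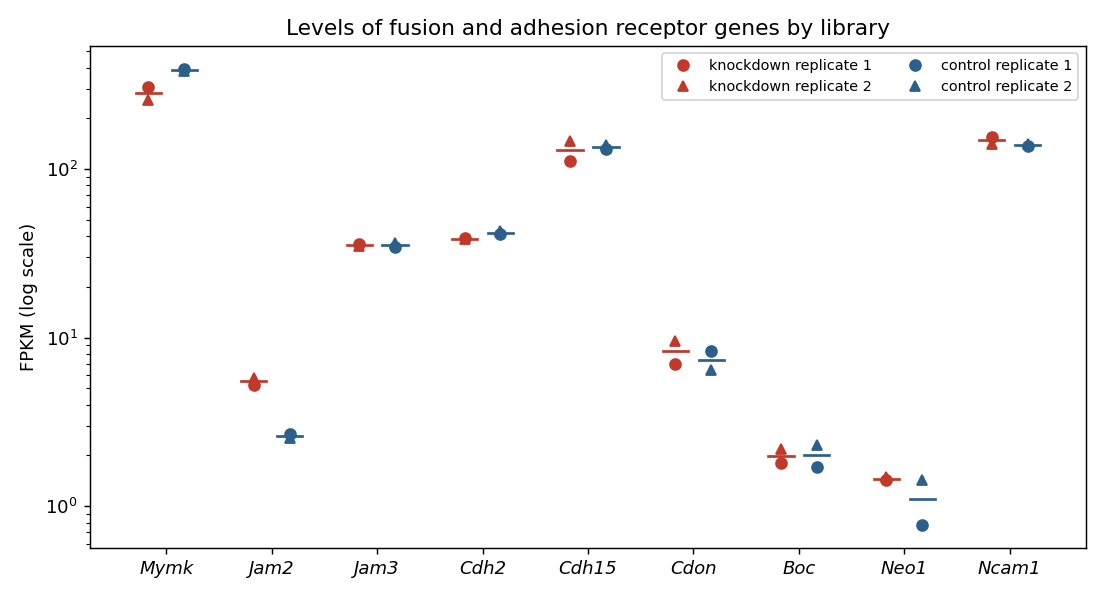
FPKM (log axis) of 9 member genes in each library, knockdown in red and control in blue, circles for replicate 1 and triangles for replicate 2, with a bar at each group mean. Mymk spans 257 to 394 FPKM and Neo1 0.775 to 1.49 FPKM, and the groups stand clearly apart for Mymk and Jam2. Nphs1 is not drawn because it is listed at 0 in 1 library.

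The members covered a wide range of levels. By mean FPKM over the 4 libraries the order was Mymk (335), Ncam1 (144), Cdh15 (133), Cdh2 (40.3), Jam3 (35.4), Cdon (7.82), Jam2 (4.06), Boc (2.00), Neo1 (1.28) and Nphs1 (0.0112). The ranges of neighbours over the 4 libraries did not overlap, except for Ncam1 and Cdh15, whose values ran from 137 to 156 FPKM and from 111 to 148 FPKM. Each value is the covered bases of a gene divided by all of its annotated exonic bases, which lowers genes with long extra exons: the exons of Cdh2 add up to 8066 bases while its longest coding transcript has 4843. Divided by the longest coding transcript instead, the order stayed the same, Ncam1 (mean 189.9) and Cdh15 (mean 133) no longer overlapped, and the ranges of Cdon and Jam2, and of Boc and Neo1, then did. Cdh2 and Jam3 had means of 67.2 and 58.3 on that scale. Mymk lay at the 99.1st percentile of the levels of all genes tested, Ncam1 and Cdh15 at the 96.8th and 96.4th, and Neo1 at the 6.08th.

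Mymk (chromosome 2, 27061636 to 27072179, minus strand, GRCm38) reached 307 and 257 FPKM in knockdown cells against 394 and 382 FPKM in control cells. Both knockdown libraries lay below both control libraries, knockdown replicate 2 being the lowest. These values rest on 15966 to 23329 reads' worth of bases per library. The group means were 282 ± 34.8 FPKM in knockdown cells and 388 ± 9.03 FPKM in control cells (SD, n = 2 each), a ratio of 0.727. The log2 fold change was -0.46 ± 0.11 (SE), with a 95% interval of -0.72 to -0.21 and an adjusted p of 0.523. Of all genes tested, 10.3% had a change at least as large and 0.789% had a limma p at least as low. The 2 knockdown replicates were 0.25 apart on the same log2 scale and the 2 control replicates 0.047 apart. Without knockdown replicate 2 the log2 fold change of Mymk was -0.34, and without knockdown replicate 1 it was -0.59.

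In bulk RNA, fewer fusing cells and less Mymk RNA per cell cannot be told apart. Myog lay below control in both knockdown libraries too, with a log2 fold change of -0.40 ± 0.11 (SE, adjusted p 0.607). Mymk amounted to 9.00% and 9.21% of the Myog level in knockdown cells and to 9.40% and 9.71% in control cells. This ratio was lower in both knockdown libraries too, by a smaller proportion than Mymk itself, and its cause was not tested. Acta2, the highest gene of the smooth muscle and pericyte list, had 2670.3 and 2576 FPKM in knockdown cells against 3165 and 3021 FPKM in control cells. Its log2 fold change was -0.24 (adjusted p 0.607). Mcam of the same list also lay below control in both knockdown libraries, with 0.826 and 0.570 FPKM in knockdown cells against 2.22 and 1.94 FPKM in control cells (log2 fold change -0.86, adjusted p 0.607). Pdgfrb went the other way, with 0.460 and 0.634 FPKM in knockdown cells against 0.150 and 0.184 FPKM in control cells. Rgs5 was listed at 0 in both knockdown libraries, against 0.0733 and 0.0981 FPKM in control cells, and Myh11, a defining smooth muscle gene, was at 0.0337 FPKM or less in every library. The part of these levels in the Mymk difference was not tested. Mymx, which codes for the partner myomixer, had 331 and 248 FPKM in knockdown cells against 295 and 269 FPKM in control cells. Its groups overlapped, with a log2 fold change of 0.023 ± 0.15 (SE, adjusted p 0.984). The ratio of Mymk to Mymx was 0.927 and 1.04 in knockdown cells against 1.34 and 1.42 in control cells. A two-sided exact permutation test of 2 against 2 samples cannot go below 0.333, so that ratio is given as a description.

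**Figure D2:**
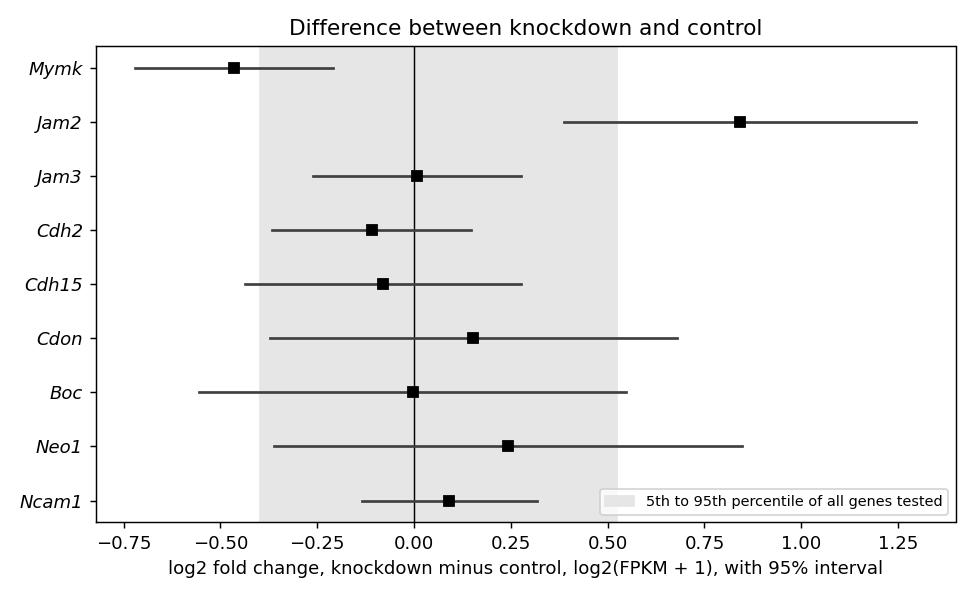
Log2 fold change of 9 member genes, knockdown minus control in log2(FPKM + 1), as squares with 95% intervals from limma. The grey band holds the 5th to 95th percentile of all genes tested, -0.40 to 0.52. Mymk at -0.46 and Jam2 at 0.84 lie outside it, and the other 7 lie inside.

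Jam2 and Jam3 code for immunoglobulin-type proteins of cell junctions that bind each other across cells, and in zebrafish this pair is required for myoblast fusion. Jam2 (chromosome 16, 84774123 to 84825928, plus strand) had 5.25 and 5.75 FPKM in knockdown cells against 2.69 and 2.56 FPKM in control cells. Both knockdown libraries lay far above both controls, and each group was tight. In reads' worth of bases these values are 1164 and 1428 in knockdown cells against 637 and 603 in control cells. The group means were 5.50 ± 0.354 FPKM in knockdown cells and 2.62 ± 0.0976 FPKM in control cells (SD, n = 2 each), a 2.10-fold difference. The log2 fold change was 0.84 ± 0.19 (SE), with a 95% interval of 0.39 to 1.30. At an adjusted p of 0.523 Jam2 did not pass. Of all genes tested, 1.48% had a change at least as large and 0.697% had a limma p at least as low. Leaving out each library in turn gave log2 fold changes of 0.79 to 0.90.

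Jam2 is also a gene of endothelial cells. The summed level of the 5 endothelial markers was 6.82 and 6.51 FPKM in knockdown cells against 5.77 and 8.18 FPKM in control cells, with overlapping groups. Nearly all of that sum was Eng and Tek. Eng was their highest member, with 4.16 and 5.24 FPKM in knockdown cells against 4.97 and 6.39 FPKM in control cells (log2 fold change -0.23, adjusted p 0.847). Tek had 2.45 and 1.27 FPKM in knockdown cells against 0.801 and 1.78 FPKM in control cells, with overlapping groups (log2 fold change 0.33, adjusted p 0.863). Kdr was at 0 in every library, Cdh5 was at most 0.0318 FPKM and Pecam1 at most 0.176 FPKM. The part of endothelial cells in the Jam2 difference was not tested.

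Jam3 (chromosome 9, 27097384 to 27155421, minus strand) was the more abundant of the pair and gave nearly the same level throughout. It had 36.2 and 34.8 FPKM in knockdown cells against 34.3 and 36.3 FPKM in control cells, with overlapping groups. Its log2 fold change was 0.0088 ± 0.11 (SE), with a 95% interval of -0.26 to 0.28, an adjusted p of 0.991, and a sign that turned with scaling by median ratios (-0.02). Of its exonic bases 36.2% are shared with the antisense gene Gm48796, which had 1.42 and 1.66 FPKM in knockdown cells against 1.14 and 1.32 FPKM in control cells. Whether the values were counted by strand is not given in the sources used here, so reads of both genes in the shared bases cannot be told apart. Jam2 made up 12.7% and 14.2% of the summed Jam2 and Jam3 level in knockdown cells and 7.28% and 6.58% in control cells, so Jam3 was the larger share in each library.

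Cadherins bind their own kind on the neighbouring cell and are anchored to actin by catenins. Cdh15 codes for M-cadherin, which is largely restricted to the muscle lineage, and Cdh2 for N-cadherin, which is shared with nerve and many mesenchymal cells. Cdh15 (chromosome 8, 122847966 to 122867397, plus strand) had 111 and 148 FPKM in knockdown cells against 132 and 140 FPKM in control cells. The knockdown libraries held both the lowest and the highest value, so the control libraries lay between them. The log2 fold change was -0.080 ± 0.15 (SE), with a 95% interval of -0.44 to 0.28 and an adjusted p of 0.934, and it was 0.12 without knockdown replicate 1 and -0.28 without knockdown replicate 2.

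E-boxes share the short motif CANNTG, and the sites that MYOD1 and its relatives bind are among them. Any CANNTG was searched in the RefSeq promoter windows (GRCm38.p6, 250 bases before to 50 after the annotated start). Windows were found for 4 members: Cdh15, Cdon, Neo1 and Nphs1. The motif reads the same pattern on both strands, and it was in 1 of the 4 windows, that of Cdh15, with 4 matches that do not overlap each other. Among all 32851 promoter windows 72.3% hold at least 1 match and 6.49% hold 4 or more. The matches in Cdh15, the muscle cadherin of the set, are shown with 10 bases on either side, the E-box in capitals, 5′ to 3′ on the plus strand.
Cdh15 match 1, chr8:122848128-122848153: gcactgatcaCATATGctgtcactca
Cdh15 match 2, chr8:122848229-122848254: ggcccacctaCATGTGctgtcactca
Cdh15 match 3, chr8:122848332-122848357: ccccaccacaCACGTGcagtcccttg
Cdh15 match 4, chr8:122848362-122848387: gctccccaagCACTTGcgctgtcact
The first base of the capitals lies at -236, -135, -32 and -2 from the RefSeq start. GENCODE M21 places the start of Cdh15 408 bases further upstream, so that in its annotation all 4 lie within the first exon. The windows of Cdon (from 35451826) and Nphs1 (from 30459808) also lie inside the GENCODE genes, which start at 35421128 and 30458315. The motif was not searched at those GENCODE starts. A match is a description of the letters and no measurement of binding was made.

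Cdh2 (chromosome 18, 16588877 to 16809246, minus strand) reached 39.1 and 38.5 FPKM in knockdown cells against 41.0 and 42.8 FPKM in control cells. Both knockdown libraries lay below both controls, by a small step. The log2 fold change was -0.11 ± 0.11 (SE), with a 95% interval of -0.37 to 0.15 and an adjusted p of 0.858. N-cadherin took 26.0% and 20.7% of the summed Cdh2 and Cdh15 level in knockdown cells and 23.8% and 23.4% in control cells. The control values lay between the knockdown values, as they did for Cdh15 alone. Cdh2 and Ncam1 are also genes of Schwann cells. The Schwann marker Ngfr had 0.675 and 0 FPKM in knockdown cells against 0.386 and 0.167 FPKM in control cells. S100b was at 0 in every library and Sox10 was at most 0.0124 FPKM. The part of Schwann cells in the Cdh2 and Ncam1 levels was not tested.

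CDON and BOC are related immunoglobulin and fibronectin repeat proteins that complex with cadherins in myoblasts and also act as co-receptors of hedgehog ligands, and neogenin, the product of Neo1, is a receptor of netrins and repulsive guidance molecules. Cdon (chromosome 9, 35421128 to 35507652, plus strand) was the highest of these co-receptors, with 7.02 and 9.57 FPKM in knockdown cells against 8.28 and 6.39 FPKM in control cells. The groups overlapped, and replicates differed by 0.40 in knockdown and 0.33 in control on the log2 scale, more than the log2 fold change of 0.15 ± 0.22 (SE, adjusted p 0.908). That fold change was -0.046 without knockdown replicate 2 and 0.35 without knockdown replicate 1. Cdon made up 68.6% and 72.2% of the summed level of the 3 genes in knockdown cells and 77.0% and 63.0% in control cells.

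Boc (chromosome 16, 44485049 to 44558897, minus strand) stood at 1.79 and 2.20 FPKM in knockdown cells against 1.70 and 2.32 FPKM in control cells. Here too the groups overlapped, with the widest values both in control, and the log2 fold change was -0.0029 ± 0.23 (SE), with a 95% interval of -0.55 to 0.55 and an adjusted p of 0.998. Neo1 (chromosome 9, 58874687 to 59036441, minus strand) stood at 1.43 and 1.49 FPKM in knockdown cells against 0.775 and 1.42 FPKM in control cells, on 264 to 532 reads' worth of bases. Control replicate 1 stood low, while control replicate 2 (1.4249) lay just under knockdown replicate 1 (1.4254). Its log2 fold change of 0.24 ± 0.25 (SE) had an adjusted p of 0.866 and was 0.018 without control replicate 1, against 0.47 without control replicate 2. The intervals of Cdon, Boc and Neo1 ran from -0.37 to 0.68, from -0.55 to 0.55 and from -0.36 to 0.85.

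**Figure D3:**
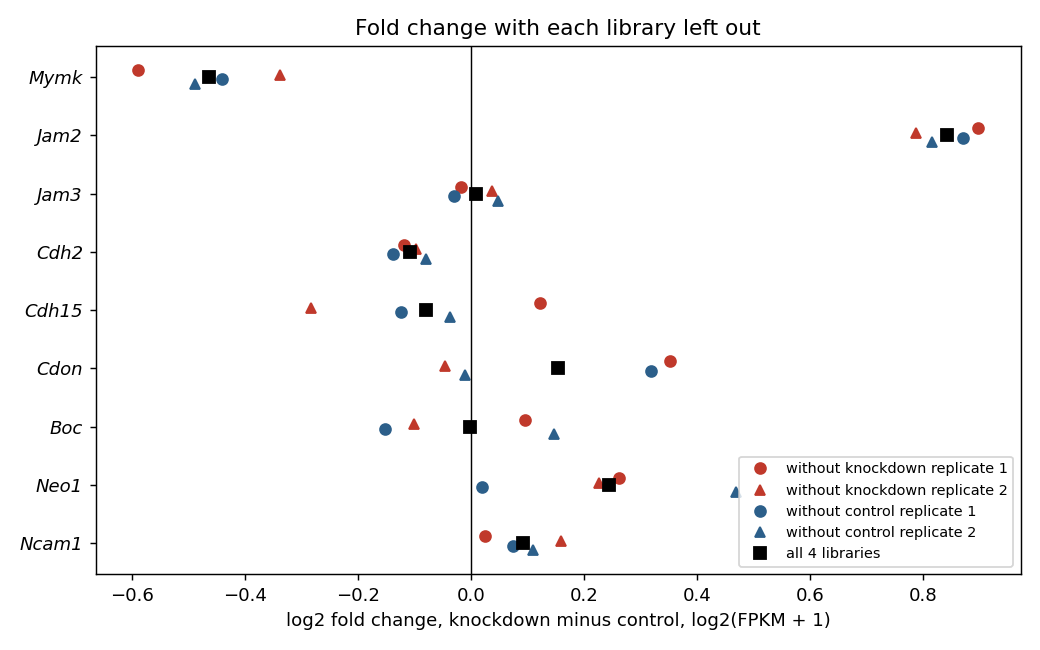
Log2 fold change of 9 member genes, knockdown minus control, with all 4 libraries (black squares) and with each library left out (red for a knockdown library, blue for a control library, circles for replicate 1 and triangles for replicate 2). Mymk keeps to -0.59 to -0.34 and Jam2 to 0.79 to 0.90, while Cdh15, Cdon, Boc and Jam3 cross 0.

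Ncam1 codes for NCAM, an immunoglobulin-type adhesion molecule that increases as myoblasts differentiate, and Nphs1 for nephrin, known for the filtration slit of the kidney and also reported at myoblast contacts. Ncam1 (chromosome 9, 49502136 to 49798925, minus strand) reached 156 and 142 FPKM in knockdown cells against 137 and 141 FPKM in control cells. The means were 149 ± 9.93 FPKM in knockdown cells and 139 ± 2.47 FPKM in control cells (SD, n = 2 each). Its log2 fold change was 0.091 ± 0.093 (SE), with a 95% interval of -0.13 to 0.32, an interval narrower than that of any other member, and an adjusted p of 0.866. Knockdown replicate 2 lay above control replicate 2 by less than 1 FPKM. Nphs1 (chromosome 7, 30458315 to 30487223, plus strand) was listed at 0 FPKM in knockdown replicate 1 and at 0.0138 FPKM in knockdown replicate 2, against 0.0118 and 0.0191 FPKM in control cells. These levels are worth 0 to 4.93 reads per library, near the floor of 3 reads, so no fold is given. Part of its exons is shared with the pseudogene Rps12-ps4 and the antisense gene Nphs1os, and reads in the shared bases cannot be assigned.

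Counted by library, both knockdown values lay above both controls in 3 of the 9 tested members (Jam2, Neo1 and Ncam1), where 22.1% of all genes tested did so. They lay below in 2 (Mymk and Cdh2), where 16.3% of all genes did. The split depends on scale: with libraries scaled by median ratios, Jam2 alone lay above, where 19.1% of genes did, and Mymk and Cdh2 still lay below, where 19.3% did.

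The partners, ligands and effectors of these receptors were read from 6 lists holding 79 genes, of which 78 had a row and 47 passed the filter. By limma 0 were called higher and 0 lower, 2 had an unadjusted p under 0.05, and the lowest adjusted p was 0.649. Their median log2 fold change was 0.063, with 31 positive and 16 negative, beside 0.026 for all genes. The 2 of 47 stand beside 7.08% of all genes tested. Both knockdown libraries lay above both controls in 14 of the 47, where 22.1% of all genes did, and below in 3, where 16.3% did. With scaling by median ratios these counts were 10 and 4, beside 19.1% and 19.3% of all genes, and 26 of the 47 fold changes were positive and 21 negative.

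Fusion machinery had 14 of 20 genes tested, 0 called in either direction and a median log2 fold change of 0.022. The list's genes with the lowest p were Arf6, a small GTPase of membrane traffic, and Nckap1, a subunit of the WAVE actin regulator. Arf6 had 9.67 and 11.9 FPKM in knockdown cells against 5.23 and 7.88 FPKM in control cells, a log2 fold change of 0.66 ± 0.23 (SE, adjusted p 0.649). The value for Nckap1 was 0.20 (adjusted p 0.812). Adgrb1 and Adgrb3, which code for adhesion receptors linked to myoblast fusion in mice, were at 0 in every library.

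Cadherins and catenins had 6 of 11 genes tested, 0 called in either direction and a median of 0.090. Jup, which codes for the junction protein plakoglobin, had 14.6 and 20.8 FPKM in knockdown cells against 9.87 and 12.7 FPKM in control cells. Its log2 fold change was 0.60 ± 0.21 (SE) with an adjusted p of 0.664. Ctnnd1, which codes for the p120 catenin that steadies cadherins at the membrane, had 12.4 and 12.9 FPKM in knockdown cells against 9.94 and 9.77 FPKM in control cells, a log2 fold change of 0.33 ± 0.14 (SE, adjusted p 0.698). The groups of both genes did not overlap. Among JAM relatives, nectins and junction scaffolds 5 of 10 genes were tested, 0 were called and the median was 0.13. Prkci, a kinase of cell polarity, differed by 0.14 on the log2 scale (adjusted p 0.917).

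Netrin, RGM and hedgehog ligands and receptors had 7 of 16 genes tested, 0 called and a median of 0.052. Ntn1, which codes for netrin-1, had 1.36 and 1.77 FPKM in knockdown cells against 0.961 and 0.933 FPKM in control cells, a log2 fold change of 0.39 (adjusted p 0.746). Hfe2, the muscle gene of the RGM family, had -0.30 (adjusted p 0.806). Shh was at 0 in every library, and Ptch1 and Gli1, common readouts of hedgehog signalling, were at most 0.298 and 0.153 FPKM. The effectors of CDON had 8 of 9 genes tested, 0 called and a median of 0.066, with the focal adhesion kinase gene Ptk2 at 0.37 (adjusted p 0.745) and the p38 scaffold gene Spag9 at 0.29 (adjusted p 0.808). Nephrin and NCAM partners had 7 of 13 genes tested, 0 called and a median of 0.076. Kirrel, a nephrin-related adhesion gene, had 1.25 and 2.01 FPKM in knockdown cells against 0.932 and 0.922 FPKM in control cells (adjusted p 0.746), and Nck1, an adaptor that binds nephrin, differed by -0.16 on the log2 scale (adjusted p 0.861). Kirrel2 was at 0 in every library.

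**Figure D4:**
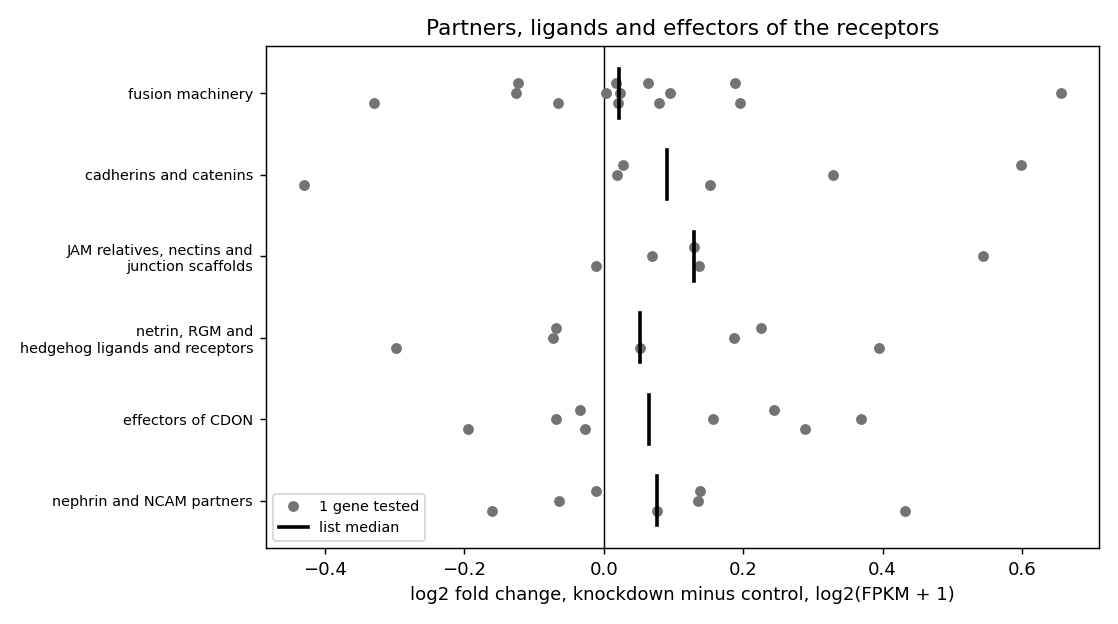
Log2 fold change, knockdown minus control in log2(FPKM + 1), of each tested gene in the 6 lists of partners (points, spread vertically for visibility), with a bar at each list median. The medians lie between 0.022 and 0.13, and Arf6 at 0.66 and Jup at 0.60 are the points farthest to the right.

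Markers of the remaining cell types that a hindlimb preparation could hold were low. The 5 fibro-adipogenic markers summed to 3.32 and 2.52 FPKM in knockdown cells against 4.34 and 4.79 FPKM in control cells, nearly all of it Col1a1. The 5 macrophage markers summed to 3.14 and 2.14 FPKM in knockdown cells against 2.83 and 1.66 FPKM in control cells, with Cd14 the highest of them and Ptprc and Adgre1 at 0 in every library.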

How the data were processed

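Polyadenylated RNA of 4 samples was sequenced, 2 per group, and samples were grouped by title. Libraries were made from SMART-Seq cDNA and sequenced as read pairs, per the labels' protocols. HISAT2 2.1.0, StringTie 1.3.3, Trimmomatic 0.36 and the build mm10 are among the entries of the submitters' processing notes, whose annotation and strand setting are unknown here. The deposited values are FPKM made by the authors, a unit read from the values.

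In 97.7% of 9488 genes with several transcripts, the value times the union of GENCODE M21 exons fell on 6 decimals (2% by chance), as did those of all 10 members. Such a value is the covered bases per exonic base. It therefore also depends on the lengths of the transcripts present, and shifts between transcripts were not tested. In genes with 1 exon and 1 transcript, low values fell on whole bases (tolerance 0.1 of a step) in 87.2% to 88.2% of cases, against 20% by chance, which gave the reads' worth of each value. Reads cover counting error only.

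Tests used limma 3.58.1 (R 4.3.3), a mean-variance trend, a pseudocount of 1 and Benjamini-Hochberg adjustment over 10900 genes, with 2 residual and 4.09 prior degrees of freedom. No count model was used. The steps were run on log2 values simulated from the fitted spreads, with known changes put into higher genes only. Such values follow the model by design, so they check the steps and not whether the model suits these libraries. Python 3.11.15 drew the plots. The members and lists were chosen with earlier results of these data known. All members are named, and of each partner list any gene called, and failing that the 2 of lowest p. The levels of Adgrb1, Adgrb3, Shh, Ptch1, Gli1, Kirrel2, Tek, Pdgfrb, Rgs5, Mcam, Itga7 and Sdc4 were chosen after their values were seen. Alternatives were another pseudocount, 2 other filters, 2 scalings, no trend, a replicate block and each library left out. RefSeq sequences for proteins were not used here, and 1 gene that the naming rule picks and some markers are not reported here.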

Additional observations from a re-analysis of the deposited data

How the results depend on the processing

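Under 11 alternatives 0 members and 0 partner genes were called, and the lowest adjusted p of any member was 0.0769. Of 96 recomputed member fold changes 88 kept their direction, and 8 changed sign, all of them in Jam3, Cdh15, Cdon and Boc. With median ratio scaling Jam3 had -0.020. With 1 library left out, and the lone sample assumed to vary like the other group, Jam3 ranged from -0.030 to 0.048, Cdh15 from -0.28 to 0.12, Cdon from -0.046 to 0.35 and Boc from -0.15 to 0.15. The count of all genes called was 6, against 0 with no filter, 3 with the replicate block, and 5 to 15 with 1 library left out, the 15 without knockdown replicate 1. The cause was not tested. With the filter at 5 FPKM, Jam2, Boc and Neo1 were not tested. The difference between the replicates in knockdown did not track that in control (r = -0.021 across genes). This single contrast cannot tell whether same-numbered samples shared a culture, an animal or a batch. The replicate block changed no call of a member.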

Other observations

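Several abundant genes of the cell surface and its signalling had overlapping groups, where 38.5% of all genes tested had groups that did not overlap. The genes named here were picked from the lists after their values were seen. Not every abundant gene overlapped. Rac1 of the fusion list had 115.3 and 127.6 FPKM in knockdown cells against 136.6 and 128.5 FPKM in control cells (log2 fold change -0.13, adjusted p 0.815). Cd81, a tetraspanin with a known part in myoblast fusion, had 357 and 334 FPKM in knockdown cells against 347 and 343 FPKM in control cells, a log2 fold change of 0.0040 (95% interval -0.19 to 0.20). Cd9, its close relative, had 106 and 120 FPKM in knockdown cells against 109 and 114 FPKM in control cells (interval -0.23 to 0.27). Cdc42, the small GTPase downstream of CDON, had 359 and 327 FPKM in knockdown cells against 356 and 342 FPKM in control cells (interval -0.24 to 0.18).

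St8sia2, an enzyme that adds polysialic acid to NCAM, had 104 and 90.5 FPKM in knockdown cells against 93.6 and 90.4 FPKM in control cells, a log2 fold change of 0.076 (95% interval -0.18 to 0.34). Ncam2, the relative of Ncam1, was at 0 in every library.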
